A study of Mus musculus with 21 samples.

Results

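The cytokines described here are 10 secreted proteins, chosen by name with earlier results of these data known. Of the IL-6, IL-10 and IL-12 type are Il6, Lif and Osm, Il10, and the IL-12 type subunits Il12a, Il12b, Il23a, Il27 and Ebi3. The last member, Il15, belongs to none of these types. Each symbol matched 1 row of a count table of 47069 gene identifiers, so all 10 members were found. The cells were bone-marrow-derived macrophages of wild-type C57BL/6 mice aged 8 to 10 weeks, grown in culture with the growth factor M-CSF. They were untreated at 0 h (Ctrl_0h), or received tumour necrosis factor (TNF_6h, TNF_24h), interleukins 4 and 13, called IL here (IL_6h, IL_24h), or all 3 cytokines (IL_TNF_6h, IL_TNF_24h), each at 10 ng/ml, for 6 h or 24 h. Each of the 7 groups had 3 libraries, and no untreated library of 6 h or 24 h was used here, so a comparison with Ctrl_0h also holds the time in culture.

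Interleukin 6, leukemia inhibitory factor (Lif) and oncostatin M (Osm) are ligands that signal through the shared receptor chain gp130, encoded by Il6st. Il10 is the cytokine by which macrophages restrain their own inflammatory output. IL-12 type cytokines are pairs of an alpha chain and a beta chain: Il12a with Il12b makes IL-12, Il23a with Il12b makes IL-23, and the alpha chain p28, encoded by Il27, makes IL-27 with Ebi3. Il15, a growth factor of natural killer and memory T cells, is carried to the cell surface by its own receptor chain Il15ra. In macrophages TNF switches on NF-kB, while IL-4 and IL-13 act through STAT6 and drive alternative activation.

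Promoter windows were at hand for 5 of the 10 members, Il6, Ebi3, Il12a, Il12b and Lif. Those of Il6, Ebi3 and Il12b are shown because they belong to a member that rose from the floor under TNF, to one that was present in every library, and to one that stayed near the floor. Each runs from 250 bases before to 50 bases after the start of transcription on the plus strand, from RefSeq with the build GRCm38.p6, at chr5:30012864-30013163, chr17:55952373-55952672 and chr11:44399813-44400112. Capitals mark matches to the NF-kB consensus or to the AP-1 motif TGANTCA, searched on both strands.
Il6: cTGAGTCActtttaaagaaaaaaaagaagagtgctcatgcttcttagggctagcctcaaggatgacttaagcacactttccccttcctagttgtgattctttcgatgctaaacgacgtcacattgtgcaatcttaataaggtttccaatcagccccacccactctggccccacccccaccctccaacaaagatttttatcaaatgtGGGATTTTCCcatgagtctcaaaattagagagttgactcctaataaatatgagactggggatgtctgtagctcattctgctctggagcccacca
Ebi3: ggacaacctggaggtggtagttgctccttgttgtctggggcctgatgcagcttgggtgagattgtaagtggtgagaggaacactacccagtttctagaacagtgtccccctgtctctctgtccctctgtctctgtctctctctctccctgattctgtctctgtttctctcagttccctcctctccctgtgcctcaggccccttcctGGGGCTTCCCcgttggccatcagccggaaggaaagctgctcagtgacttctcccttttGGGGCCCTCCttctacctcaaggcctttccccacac
Il12b: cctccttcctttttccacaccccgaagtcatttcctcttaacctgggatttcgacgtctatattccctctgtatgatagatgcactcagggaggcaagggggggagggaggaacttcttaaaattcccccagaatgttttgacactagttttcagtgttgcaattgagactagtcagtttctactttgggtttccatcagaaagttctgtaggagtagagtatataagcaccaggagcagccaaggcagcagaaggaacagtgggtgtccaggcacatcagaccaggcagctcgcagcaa

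The Il6 window held 1 NF-kB match, at positions -44 to -35 from the start, and 1 match to TGANTCA at -249 to -243, with no overlap between them. The Ebi3 window held 2 NF-kB matches, 1 of them also at -44 to -35 and the other at 15 to 24 after the start. The Il12b window held no match to either motif. Of the windows not shown, that of Lif, also near the floor, held 1 NF-kB match and 1 match to TGANTCA, and each of the 2 Il12a windows held 1 match to the STAT6 motif. The STAT motif TTCNNNGAA, the STAT6 motif, which has 1 base more between TTC and GAA, and the interferon-stimulated response element, read as GAAA, any 2 bases and GAAA, had no match in these 3 windows. Among 32851 promoter windows of the same length, 8.46% held the NF-kB consensus, 7.81% TGANTCA, 8.3% TTCNNNGAA, 6.95% the STAT6 motif and 3.44% the interferon-stimulated response element. These matches describe letters in a window and are no measurement of binding.

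The libraries held totals of 28063252 to 48654300 counts, and 15581 genes had enough of them to be tested. Levels are CPM, counts brought to a common library total after TMM scaling, and 3 counts in 1 library correspond to 0.0582 to 0.105 CPM. Whether replicates are separate cultures or animals is not in the labels, and the p values therefore rest on the spread between these samples alone, which may be technical. The IL_24h and IL_TNF_24h libraries stood apart by sex-linked genes: Xist had at most 0.145 CPM there and at least 162 CPM in the other 15 libraries. Ddx3y had 41.8 to 50.9 CPM in those 6 libraries and 0 in the other 15. By these genes, those 6 libraries are of male cells and the other 15 of female cells. Comparisons between them thus also set male against female cells. IL_6h and IL_TNF_6h had 562 CPM of Xist or more, against at most 283 CPM without IL. They are taken as a further set. The labels name no set, so the sets rest on these genes alone. Whether the higher Xist level came with IL or with a separate set cannot be told apart. TNF against Ctrl_0h, TNF_24h against TNF_6h, and IL_TNF against IL at the same time compare libraries of 1 set, and in all other comparisons set and treatment cannot be told apart. Ctrl_0h replicate 2 also stood apart, with counts for 27761 genes against 16996 to 20631 in the other libraries. It held Zbtb46 at 6.39, Gata2 at 6.22 and Flt3 at 3.25 CPM, genes of the dendritic cell and mast cell marker lists. Its Ctrl_0h partners had at most 0.294 CPM of each. The remaining genes of these lists had at most 0.575 CPM in that library. Among them Clec9a, at 0.0676 CPM, was lower than in both partners, and Ms4a2 and Fcer1a had 0 counts. These lists as a whole thus did not rise there. All 7 macrophage markers exceeded 1 CPM in every group. Of other cell types, the dendritic cell list of 7 genes summed to 25.1 to 30.9 CPM in IL_TNF_24h and to at most 11.02 CPM elsewhere, in Ctrl_0h. The highest sums of other lists were 8.75 CPM for stromal genes in IL_6h, 7.98 for B cell genes in Ctrl_0h and 6.66 for mast cell genes in Ctrl_0h. The mast cell sum was mostly the Gata2 of Ctrl_0h replicate 2. Neutrophil genes reached 5.34 CPM in IL_TNF_24h, and T and NK cell genes 1.32 CPM in Ctrl_0h. The neutrophil sum was nearly all Cxcr2, at 2.17 to 5.30 CPM. Of that list, Ly6g, Elane and Mpo had 0 counts in IL_TNF_24h, and Camp and Ltf at most 0.0563 CPM. In IL_TNF_24h 3 of the 7 dendritic cell genes had a mean over 1 CPM, Zbtb46, Ccr7 and Clec9a. Siglech and Cd209a had 0 counts there and Flt3 at most 0.0467 CPM. Xcr1 had 0.169 to 0.253 CPM there, against 0.199 to 1.31 CPM in TNF_24h. The part of these genes in the results below was not tested.

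Of the 10 members, 6 passed the filter and were tested. Il15 and Ebi3 were present in every library at 3.27 CPM or more. Il10, Il27 and Osm lay between 0.0390 and 49.1 CPM. Il6 stood above the floor in 1 group only, TNF_24h, and passed the filter through that group. Its calls in comparisons with TNF_24h were therefore favoured by the filter. A group was taken as near the detection floor where its mean was below 0.5 CPM, and as at the floor where its 3 libraries held 3 counts or fewer. Il10 in IL_TNF_24h and Il27 in IL_24h were also near the floor. Il12a, Il12b, Il23a and Lif were near the floor in all 7 groups, did not pass the filter and were not tested. These levels in cells in bulk do not separate fewer producing cells from less RNA per cell.

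Il6 (ENSMUSG00000025746, chromosome 5, 30013114 to 30019975 in GRCm38.p6) had 50, 61 and 63 counts in the 3 TNF_24h libraries, at 1.52, 2.14 and 2.09 CPM. Ctrl_0h held 0, 4 and 0 counts, TNF_6h 0, 2 and 0, IL_6h 4, 0 and 0, and IL_24h 0 in each library, which allows up to 0.0206 CPM over the group. IL_TNF_6h held 12, 2 and 10 counts and IL_TNF_24h 6, 1 and 7. Every TNF_24h library thus lay above every other library, and each remaining group overlapped its neighbour in the order of means. Il6 rose in TNF_24h against Ctrl_0h with a log2 fold change of 5.39 ± 1.21 (SE, adjusted p = 0.00154, edgeR). All 4 counts of Ctrl_0h came from replicate 2, and without it the fitted value was 9.18, which then rests on a group with 0 counts and is no measure of size. Without Ctrl_0h replicate 1 the value was 4.78. Against TNF_6h the ratio of summed levels was 87.7, with a 95% counting interval of 23.9 to 730 (adjusted p = 0.00169, edgeR), where both TNF_6h counts came from replicate 2. Intervals and floors cover counting error only.

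Osm (ENSMUSG00000058755, chromosome 11, 4236785 to 4241026) showed the smallest ratio of highest to lowest level among the tested members. Its levels were 4.97, 4.09 and 5.61 CPM in Ctrl_0h, 3.89, 3.46 and 5.09 in TNF_6h, and 5.65, 6.30 and 4.57 in TNF_24h. They were 6.80, 4.69 and 5.34 CPM in IL_6h and 2.24, 3.59 and 3.05 in IL_24h. IL_TNF_6h had 3.81, 4.62 and 3.16 CPM and IL_TNF_24h 1.86, 0.958 and 1.23. Only the IL_TNF_24h libraries lay below all others, and each other group overlapped its neighbour in the order of means. Neither TNF_6h (log2 fold change -0.24 ± 0.25, adjusted p = 0.475) nor TNF_24h (0.17 ± 0.25, adjusted p = 0.602, edgeR) passed the test against Ctrl_0h.

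Lif (ENSMUSG00000034394, chromosome 11, 4257568 to 4272514), a near neighbour of Osm on the chromosome, had 68 counts in all libraries together. Of these, 40 (58.8%) lay in Ctrl_0h replicate 2, at 1.35 CPM, while the other 2 Ctrl_0h libraries held 0. IL_TNF_6h replicate 3 held 11 counts, TNF_6h replicate 2 held 8, and 14 libraries held none. The Lif level of Ctrl_0h therefore rests on 1 library, the one with counts for the most genes.

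Il10 (ENSMUSG00000016529, chromosome 1, 131019845 to 131024970) was highest in TNF_24h, at 16.4, 17.1 and 17.7 CPM. It had 4.41, 3.65 and 4.11 CPM in Ctrl_0h, 3.72, 3.91 and 2.78 in TNF_6h, and 3.80, 3.54 and 3.73 in IL_6h. The TNF_24h libraries lay well above these 3 groups, which overlapped each other. IL_TNF_6h had 1.17, 2.17 and 2.06 CPM, IL_24h 1.07, 0.773 and 0.582, and IL_TNF_24h 0.901, 0.164 and 0.242. The last rests on 32, 7 and 10 counts, and replicate 1 was above its partners and within the range of IL_24h. TNF_24h raised Il10 by 2.07 ± 0.34 on the log2 scale against Ctrl_0h (adjusted p = 5.91e-05) and by 2.30 ± 0.34 against TNF_6h (adjusted p = 6.15e-05, edgeR), whereas at 6 h the change by TNF was -0.22 ± 0.34 (adjusted p = 0.633).

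Il27 (ENSMUSG00000044701, chromosome 7, 126589009 to 126595035) had the largest change by TNF of the members at 6 h. It stood at 0.561, 1.01 and 0.848 CPM in Ctrl_0h, at 8.44, 7.76 and 7.29 in TNF_6h and at 43.8, 49.1 and 42.8 in TNF_24h. The 3 groups did not overlap. Il27 rose by 3.29 ± 0.33 on the log2 scale at 6 h (adjusted p = 1.75e-07) and by 5.82 ± 0.35 at 24 h (adjusted p = 1.03e-10, edgeR). IL_6h had 0.707, 0.754 and 0.977 CPM, within the range of Ctrl_0h, and IL_24h had 0.0390, 0.211 and 0.310, from 2, 9 and 16 counts. IL_TNF_6h had 5.04, 4.26 and 3.98 CPM and IL_TNF_24h 1.27, 0.678 and 0.484. With all 3 cytokines Il27 was thus between IL_6h and TNF_6h at 6 h, and overlapped Ctrl_0h at 24 h.

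Ebi3 (ENSMUSG00000003206, chromosome 17, 55952623 to 55957022), the partner chain of p28, was present before any treatment. Its levels were 26.2, 24.7 and 30.3 CPM in Ctrl_0h, 45.6, 36.9 and 33.7 in TNF_6h, and 93.9, 89.7 and 74.0 in TNF_24h. IL_6h had 13.8, 11.8 and 10.8 CPM, IL_24h 7.36, 7.59 and 6.13, IL_TNF_6h 18.9, 16.0 and 15.2, and IL_TNF_24h 3.27, 5.42 and 4.47. No group overlapped its neighbour in the order of means, from TNF_24h, TNF_6h and Ctrl_0h down to IL_TNF_6h, IL_6h, IL_24h and IL_TNF_24h. Ebi3 rose by 0.52 ± 0.16 on the log2 scale at 6 h of TNF (adjusted p = 0.0174) and by 1.66 ± 0.17 at 24 h (adjusted p = 1.24e-07, edgeR). The call at 6 h was lost without Ctrl_0h replicate 2 (adjusted p = 0.0658) and without TNF_6h replicate 1 (adjusted p = 0.112).

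Because p28 and Ebi3 form 1 cytokine, their levels were also set against each other per base of exon. The ratio of Il27 to Ebi3 was 0.0345 ± 0.0115 in Ctrl_0h, 0.234 ± 0.0190 in TNF_6h and 0.608 ± 0.0660 in TNF_24h (SD, n = 3 each). The 3 groups did not overlap, and Ebi3 stayed the more abundant transcript in every library. With IL the ratio was 0.0785 ± 0.0231 at 6 h and 0.0320 ± 0.0260 at 24 h, and with all 3 cytokines 0.303 ± 0.00321 at 6 h. In IL_TNF_24h it was 0.445, 0.143 and 0.124, so its mean of 0.237 was pulled up by replicate 1. The ratio was not tested.

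**Figure D1:**
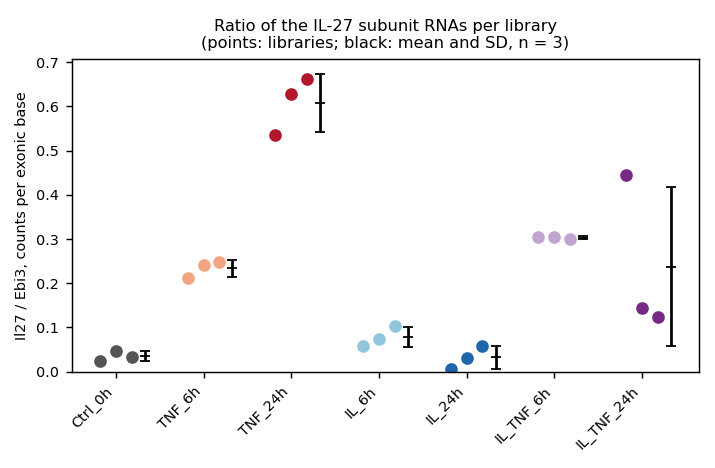
Ratio of Il27 to Ebi3 in counts per exonic base (vertical axis, no unit, linear from 0) in each library of the 7 groups, with points for libraries and black bars for the mean and SD of 3 libraries. The ratio is highest in TNF_24h at 0.535 to 0.662, and 1 IL_TNF_24h library, at 0.445, stands above its partners.

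The other IL-12 type subunits were near the floor. Il12a (ENSMUSG00000027776, chromosome 3, 68690644 to 68698550) had 32 counts in all, of which 14 lay in IL_TNF_24h replicate 1, and 16 libraries held none. Il23a (ENSMUSG00000025383, chromosome 10, 128296140 to 128298084) had 36 counts, of which 10 lay in Ctrl_0h replicate 2, and 12 libraries held none. Il12b (ENSMUSG00000004296, chromosome 11, 44400063 to 44414677), the beta chain of both IL-12 and IL-23, had 79 counts. It was highest in IL_TNF_24h with 19, 10 and 5 counts, at 0.535, 0.234 and 0.121 CPM, against 3, 2 and 0 counts in IL_24h and 5, 0 and 6 in TNF_24h. The IL_TNF_24h libraries overlapped those of TNF_24h and lay above those of IL_24h, at counts that were too low for a test.

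**Figure D2:**
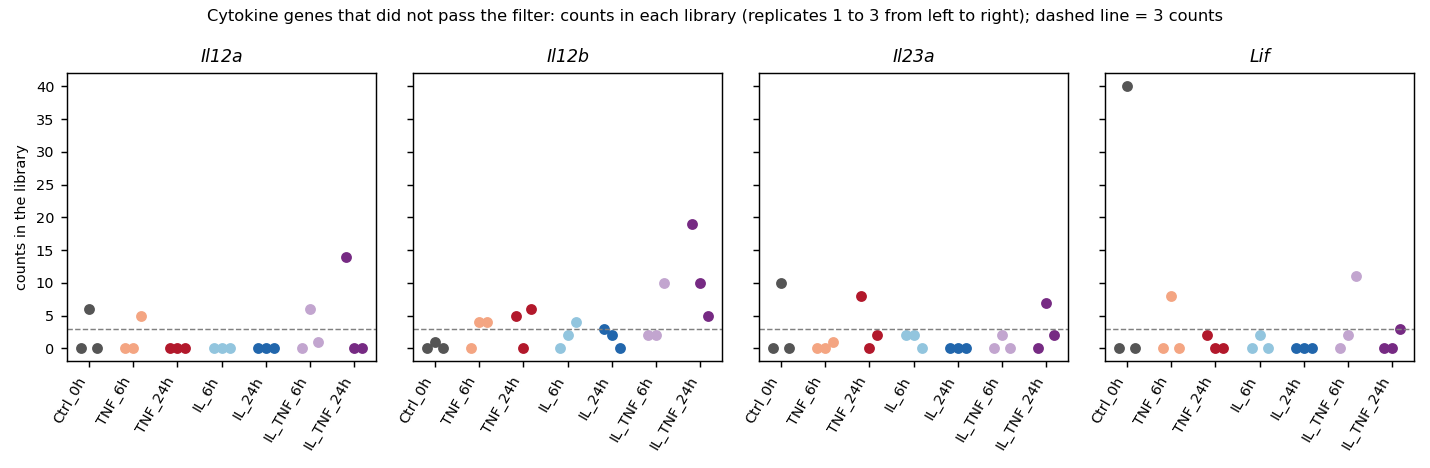
Deposited counts of Il12a, Il12b, Il23a and Lif in each library (points, replicates 1 to 3 from left to right) by group, with a dashed line at 3 counts. Lif in Ctrl_0h replicate 2, with 40 counts, stands above all other values, and most libraries lie at or below the line.

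Il15 (ENSMUSG00000031712, chromosome 8, 82331624 to 82403252) had 19.1, 17.7 and 17.8 CPM in Ctrl_0h, 43.8, 46.1 and 41.1 in TNF_6h, and 125, 149 and 118 in TNF_24h. IL_6h had 8.97, 10.9 and 7.50 CPM, IL_24h 9.60, 9.75 and 9.43, and IL_TNF_6h 26.7, 31.4 and 34.0. TNF without IL gave levels above all other groups at either time, and both IL groups lay at about the same low level and overlapped. IL_TNF_24h had 23.2, 10.6 and 10.6 CPM, with replicate 1 above Ctrl_0h and the other 2 libraries below it. Il15 rose by 1.26 ± 0.22 on the log2 scale at 6 h of TNF (adjusted p = 1.25e-04) and by 2.84 ± 0.23 at 24 h (adjusted p = 5.99e-09, edgeR). In mean CPM per kilobase of exon in TNF_24h, the order was Ebi3 73.4, Il15 68.6, Il27 44.3, Il10 13.0, Osm 2.42 and Il6 1.76.

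**Figure D3:**
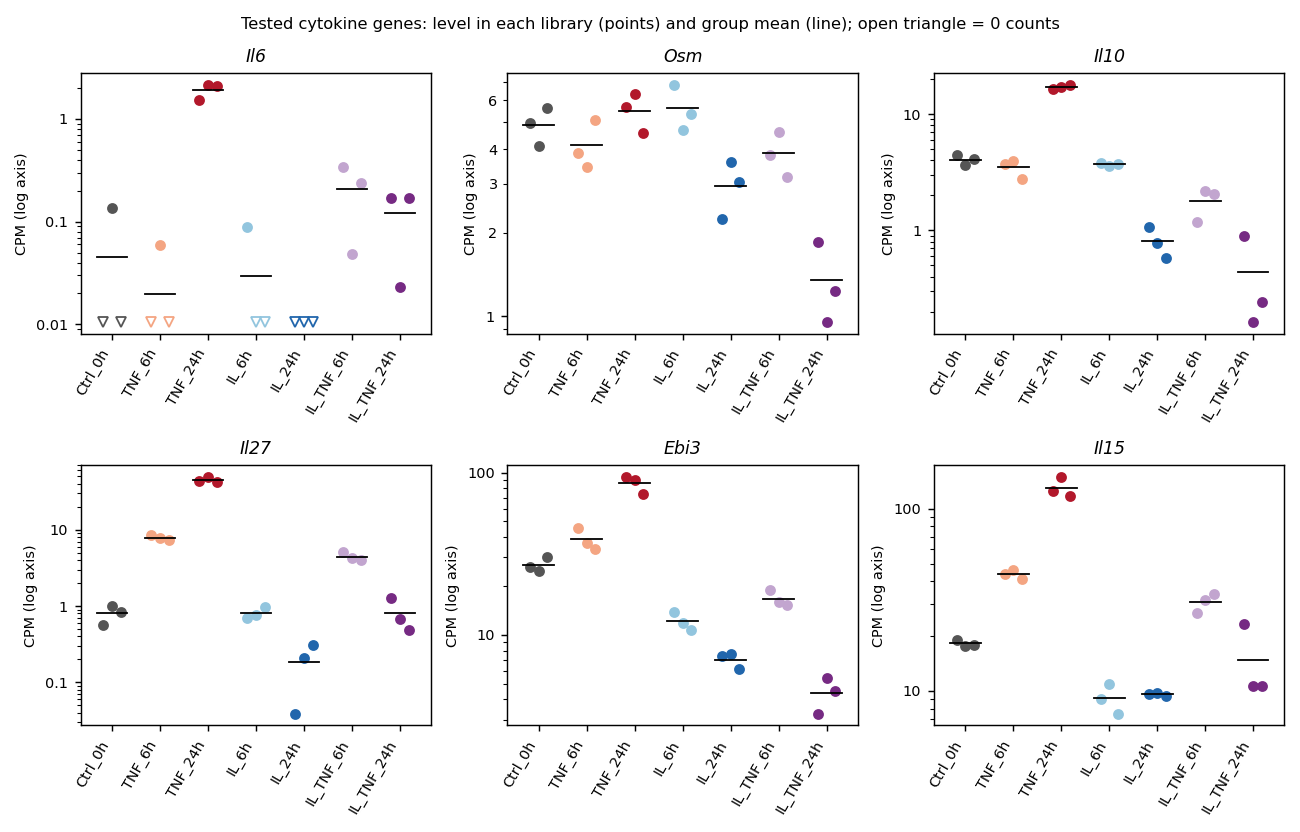
CPM of the 6 tested members in each library (points, log axes that differ between panels) with group means (lines) over the 7 groups, where open triangles mark libraries with 0 counts. Il6, Il10, Il27, Ebi3 and Il15 are highest in TNF_24h, while Osm differs less between groups and is lowest in IL_TNF_24h.

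Without IL, TNF raised more of these genes at 24 h than at 6 h. At 6 h, 3 of the 6 tested members rose against Ctrl_0h, Il27, Il15 and Ebi3, against 39.3% of all tested genes called and 18.8% raised. At 24 h, 5 of 6 rose, all but Osm, against 45.3% called and 20.9% raised. Il6, which counts here and from 6 h to 24 h, passed the filter only through TNF_24h. Its place in these counts was thus favoured by the filter. The median log2 fold change of the 6 members at 24 h was 2.46, and that of all tested genes was -0.09. The median of the members includes Il6 and was thus also favoured by the filter. From 6 h to 24 h of TNF the same 5 rose, against 23.6% called and 12.7% raised. Beside the values above, the rise from 6 h to 24 h was 2.53 ± 0.28 for Il27 (adjusted p = 2.81e-06), 1.58 ± 0.22 for Il15 (adjusted p = 2.43e-05) and 1.15 ± 0.16 for Ebi3 (adjusted p = 3.75e-05, edgeR). All groups of these 3 comparisons are taken as 1 set of libraries.

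With IL, TNF raised Il27 and Il15 at 6 h. Against IL_6h, Il27 rose by 2.45 ± 0.32 on the log2 scale (adjusted p = 1.42e-05) and Il15 by 1.75 ± 0.22 (adjusted p = 1.18e-05, edgeR). These were 2 of 6 members, against 14.1% of tested genes called and 7.09% raised. Il10 stood at -1.03 ± 0.34 (adjusted p = 0.0523) and Ebi3 at 0.46 ± 0.17 (adjusted p = 0.0778, edgeR), and both were called when DESeq2 was used in place of edgeR. Il10 was also called with no filter, with the strict filter and in a fit of these 2 groups alone (adjusted p = 0.00526, 0.0454 and 0.0377). Osm stood at -0.54 ± 0.25 (adjusted p = 0.193) and Il6 did not pass the test (adjusted p = 0.203).

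At 24 h the same comparison, IL_TNF_24h against IL_24h, held changes in both directions. Il27 rose by 2.08 ± 0.42 on the log2 scale (adjusted p = 0.00175), while Osm fell by 1.14 on the log2 scale (SE 0.26, adjusted p = 0.00566) and Ebi3 by 0.67 (SE 0.17, adjusted p = 0.0135, edgeR). Of all tested genes 11.1% were called, 6.03% raised and 5.08% lowered. The chains of IL-27 thus moved in opposite directions in these libraries. In a fit of these 2 groups alone, Il27 (adjusted p = 0.0681) and Ebi3 (adjusted p = 0.0614) lost their calls, and Ebi3 also lost it without IL_TNF_24h replicate 1 (adjusted p = 0.102), without IL_24h replicate 1 (adjusted p = 0.0620) and without IL_24h replicate 2 (adjusted p = 0.0761). Without IL_24h replicate 3, Il27 stood at 2.72. Il10 stood at -0.93 ± 0.41 (adjusted p = 0.185), but at -1.98 (adjusted p = 6.95e-04) without IL_TNF_24h replicate 1. Il15 stood at 0.62 ± 0.22 (adjusted p = 0.0807), and was called at 0.81 without replicate 2 or without replicate 3 of IL_TNF_24h, by DESeq2 (adjusted p = 0.0482) and with no filter (adjusted p = 0.00512). Without IL_TNF_24h replicate 1 it stood at 0.15 (adjusted p = 0.787, edgeR), so this value rests on that library. Il6, with 14 counts against 0 in IL_24h, was at least 5.68-fold higher than the floor of 3 counts over the group and did not pass the test (adjusted p = 0.0631, edgeR), but was called higher by DESeq2 (adjusted p = 0.0186) and by edgeR with no filter (adjusted p = 0.0138).

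Whether IL changed the effect of TNF was tested by subtracting the change by TNF without IL (TNF against Ctrl_0h) from that with IL (IL_TNF against IL). The change without IL also holds the time in culture, because its baseline is Ctrl_0h, while IL_TNF against IL does not. The libraries with and without IL are taken as different sets and at 24 h also differ in sex. In this difference IL, set and time in culture cannot be told apart. At 24 h it was negative and called for 5 of 6 members, against 24.1% of tested genes called and 12.5% lowered. The difference was -3.73 ± 0.58 for Il27 (adjusted p = 9.44e-05), -3.00 ± 0.53 for Il10 (adjusted p = 3.71e-04) and -2.34 ± 0.24 for Ebi3 (adjusted p = 1.13e-06, edgeR). Il15 (-2.22 ± 0.31, adjusted p = 3.39e-05) and Osm (-1.31 ± 0.36, adjusted p = 0.0125) also passed, and Il6 did not. The Il6 value rests on 0 counts in IL_24h and on 4 counts of 1 library in Ctrl_0h. It therefore does not show whether the effect of TNF on Il6 differed. The median was -2.28 over the 6 members, Il6 included, and 0.08 over all tested genes. For Il10 the value was -4.12 without IL_TNF_24h replicate 1, and for Il27 it was -3.11 without IL_24h replicate 3.

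At 6 h, none of the 6 members passed the test of this difference, by edgeR or by DESeq2, and none had an unadjusted p under 0.05, while 18.4% of tested genes were called. The differences were -0.84 ± 0.45 for Il27 (adjusted p = 0.217), -0.81 ± 0.48 for Il10 (adjusted p = 0.267) and 0.49 ± 0.31 for Il15 (adjusted p = 0.294). Ebi3 stood at -0.06 ± 0.23, and its sign changed when single libraries were left out. Il6 was at or near the floor in all groups of this difference.

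**Figure D4:**
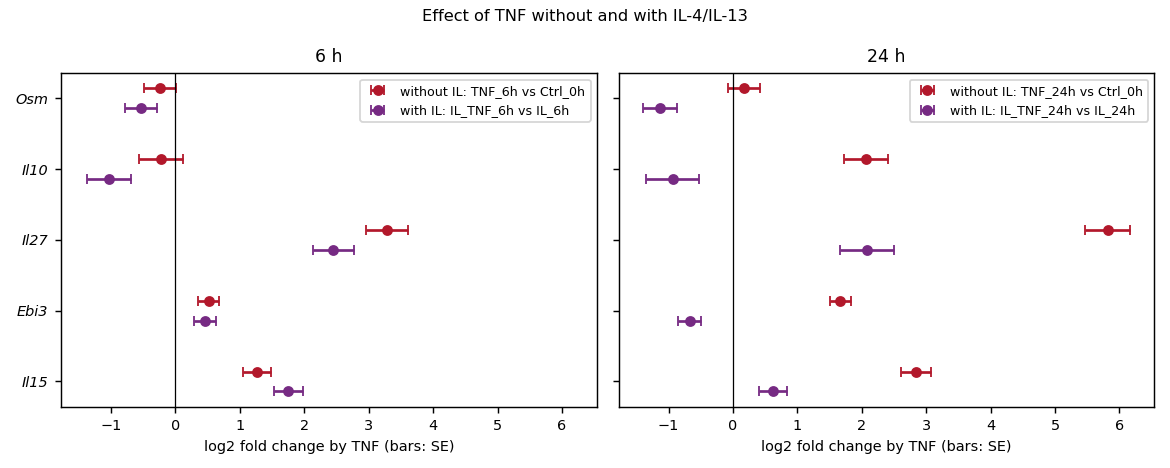
Log2 fold change by TNF without IL (against Ctrl_0h) and with IL (against the IL group of the same time) for 5 members at 6 h and 24 h, with bars of 1 SE. Values without IL also hold the time in culture. At 24 h the value without IL lies to the right of the value with IL for each member, 5.82 against 2.08 for Il27 and 1.66 against -0.67 for Ebi3.

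With IL alone, 2 of the 6 tested members fell against Ctrl_0h at 6 h and 5 of 6 at 24 h. At 6 h, Ebi3 (-1.16 ± 0.17, adjusted p = 6.66e-06) and Il15 (-0.997 ± 0.22, adjusted p = 6.48e-04, edgeR) fell, against 64.5% of tested genes called and 31.6% lowered. At 24 h, 5 of 6 fell, against 64.3% called and 32.6% lowered: Il10 (-2.32 ± 0.36), Il27 (-2.08 ± 0.42), Ebi3 (-1.95 ± 0.17), Il15 (-0.93 ± 0.22) and Osm (-0.73 ± 0.25), with adjusted p from 1.68e-08 for Ebi3 to 0.0159 for Osm (edgeR). The Osm call was lost without Ctrl_0h replicate 3 (adjusted p = 0.0667), without IL_24h replicate 1 (adjusted p = 0.0933) and with no filter (adjusted p = 0.0518). Without IL_24h replicate 3, Il27 stood at -2.71. From 6 h to 24 h of IL, 4 of 6 fell, against 24.0% called and 11.8% lowered: Il10 (-2.18 ± 0.36), Il27 (-2.10 ± 0.41), Osm (-0.93 ± 0.25) and Ebi3 (-0.79 ± 0.17), while Il15 stood at 0.07 (adjusted p = 0.864). Osm lost this call without IL_6h replicate 1 (adjusted p = 0.0573) and without IL_24h replicate 1 (adjusted p = 0.0700), and Il27 stood at -2.73 without IL_24h replicate 3. All 3 comparisons set libraries taken as different sets against each other, and those with IL_24h also set male against female cells.

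Between the groups that received TNF, 6 of the 6 tested members were lower with IL at 24 h and 4 of 6 at 6 h. In IL_TNF_24h against TNF_24h, 6 of 6 members fell, against 56.3% of tested genes called and 27.1% lowered. The fall of Il6 was favoured by the filter, which it passed only through TNF_24h. Il27 was 56.4-fold lower (log2 fold change -5.82 ± 0.34, adjusted p = 7.31e-11), Il10 40.1-fold lower (-5.33 ± 0.41, adjusted p = 3.23e-09) and Ebi3 19.5-fold lower (-4.29 ± 0.19, adjusted p = 1.23e-12, edgeR). Il6 (15.6-fold, adjusted p = 0.00420), Il15 (8.87-fold, adjusted p = 1.53e-09) and Osm (4.09-fold, adjusted p = 2.68e-06) were also lower. In each of the 6 the libraries of the 2 groups did not overlap, which held for 64.8% of tested genes. Il10 stood at -6.39 without IL_TNF_24h replicate 1. The groups belong to different sets, of male and of female cells. IL_TNF_24h also held higher levels of 3 of the 7 dendritic cell markers, and none above 0.253 CPM of the other 4. The 3 were Clec9a at 1.66 to 2.47 CPM, Zbtb46 at 4.87 to 15.6 CPM and Ccr7 at 9.28 to 18.4 CPM. Whether these bear on the members was not tested.

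At 6 h the falls were smaller. In IL_TNF_6h against TNF_6h, 4 of 6 members fell, against 57.1% called and 27.5% lowered: Ebi3 (-1.21 ± 0.17, adjusted p = 5.59e-06), Il10 (-0.94 ± 0.35, adjusted p = 0.0265), Il27 (-0.82 ± 0.28, adjusted p = 0.0169) and Il15 (-0.51 ± 0.21, adjusted p = 0.04996, edgeR). Leaving out single libraries left 1 to 3 of these calls, with 1 call, that of Ebi3, without TNF_6h replicate 1. It left 2 of them without TNF_6h replicate 2 or without any single IL_TNF_6h library. Il6 had 24 counts against 2, a ratio of 9.41 with a 95% counting interval of 2.34 to 82.1 (adjusted p = 0.0585, edgeR). It was called higher by DESeq2 (adjusted p = 0.0475), and by edgeR with the strict filter (adjusted p = 0.0454) and without TNF_6h replicate 2 (adjusted p = 0.0413). From 6 h to 24 h with all 3 cytokines, 5 of 6 fell, against 28.7% called and 13.3% lowered: Il27 (-2.46 ± 0.32), Il10 (-2.09 ± 0.40), Ebi3 (-1.92 ± 0.18), Osm (-1.52 ± 0.26) and Il15 (-1.06 ± 0.22), with adjusted p from 7.72e-08 for Ebi3 to 9.13e-04 for Il15 (edgeR). Without IL_TNF_24h replicate 1, Il10 stood at -3.14. The comparison of IL_TNF_24h with IL_TNF_6h also sets male against female cells.

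Genes most alike to each member with a group mean of at least 10 CPM were ranked by the Pearson correlation of log2 CPM over the 21 libraries, which share groups and sets. For Il27 they were Cxcl10, a chemokine induced by interferon (r = 0.975), and Ifit1, an interferon-stimulated gene (r = 0.971). Cxcl10 had a mean of 5.07 CPM in Ctrl_0h, 2892 in TNF_24h and 5.68 in IL_TNF_24h. For Il15 they were Marchf5 (r = 0.973), a mitochondrial ubiquitin ligase, and Pcgf5 (r = 0.971), a Polycomb subunit. For Ebi3 they were Gars (r = 0.950), the glycyl-tRNA synthetase, and Cd14 (r = 0.945), a co-receptor for lipopolysaccharide. For Il10 they were H3f3b (r = 0.927), a histone H3.3 gene, and Milr1 (r = 0.921), an immunoglobulin-like receptor. Among the members, Il27 and Il15 had r = 0.941, Il10 and Ebi3 0.882, and Il15 and Osm 0.362.

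Receptor chains of these cytokines differed from Ctrl_0h both with TNF and with IL. Of 13 chains, 10 passed the filter and Il23r, Il2rb and Osmr did not. In TNF_24h against Ctrl_0h, 5 rose and 2 fell, where 20.9% of tested genes were raised and 24.4% lowered. Il15ra, which presents Il15, went from 2.19 to 46.9 CPM (log2 fold change 4.42 ± 0.26, adjusted p = 8.96e-11). The shared gamma chain Il2rg rose by 2.25 ± 0.14, Il10ra by 1.46 ± 0.11, and the Lif receptor Lifr fell by 2.00 on the log2 scale (SE 0.24, edgeR). In IL_24h against Ctrl_0h, 6 rose and 2 fell, where 31.7% were raised and 32.6% lowered. Among the raised were Il6st, which went from 55.2 to 639 CPM (3.53 ± 0.16), and Il27ra, which went from 2.11 to 28.2 CPM (3.75 ± 0.19, adjusted p = 1.02e-11, edgeR). In IL_TNF_24h against TNF_24h, 6 rose and 3 fell, where 29.2% were raised and 27.1% lowered: Il6st (3.70 ± 0.16) and Il27ra (2.23 ± 0.17) rose, while Il15ra (-2.59 ± 0.23) and Il10ra (-1.54 ± 0.11) fell.

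Of 11 kinases, STAT factors and regulators used by these receptors, 8 rose in TNF_24h against Ctrl_0h, where 20.9% of tested genes were raised. Socs3, the feedback inhibitor of gp130 signalling, went from 8.82 to 86.4 CPM (3.30 ± 0.35, and 4.12 without Ctrl_0h replicate 2), and Jak2 (3.13 ± 0.17) and Tyk2 (1.95 ± 0.17) also rose. In IL_TNF_24h against TNF_24h, 5 rose and 4 fell, where 29.2% were raised and 27.1% lowered, with Socs3 at -3.39 ± 0.35 and Stat5a at 2.25 ± 0.17 (edgeR, each called). The difference in the effect of TNF at 24 h was negative and called for 6 of the 11, where 12.5% of tested genes were lowered.

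Of 21 known regulators of transcription of the members, 15 rose and 3 fell in TNF_24h against Ctrl_0h, where 20.9% of tested genes were raised and 24.4% lowered. Irf1, a regulator of Il27, Il12 and Il15 genes, went from 68.8 to 862 CPM (3.65 ± 0.25, adjusted p = 7.14e-10, edgeR), and the NF-kB subunit gene Nfkb2 (2.23 ± 0.16) and the AP-1 gene Fos (2.31 ± 0.13) rose, while Batf3 fell by 2.79 on the log2 scale (SE 0.31). In IL_TNF_24h against TNF_24h, 5 rose and 12 fell, where 29.2% were raised and 27.1% lowered. Irf4, a factor of alternative activation, went from 0.721 to 134 CPM (7.55 ± 0.43) and Batf3 from 1.68 to 57.8 CPM (5.10 ± 0.33), while Cebpd (-3.91 ± 0.23) and Cebpb (-3.47 ± 0.37), activators of Il6, fell. In IL_TNF_24h against IL_24h, 7 rose and 1 fell, where 6.03% were raised and 5.08% lowered, with Relb (1.49 ± 0.16), Bcl3 (1.41 ± 0.25) and Nfkb2 (1.07 ± 0.15) higher and Maf, an activator of Il10, at -1.06 ± 0.20 (edgeR, each called).

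Of 9 regulators of cytokine mRNA decay, 3 rose in TNF_24h against Ctrl_0h, where 20.9% of tested genes were raised. A gene among them, not named here, lost its call with no filter (adjusted p = 0.0653, edgeR). It also lost it when Ctrl_0h replicate 2 or 3, or TNF_24h replicate 2 or 3, was left out singly (adjusted p = 0.0724 to 0.121, edgeR). Arid5a, which stabilises Il6 mRNA, went from 10.2 to 80.4 CPM (2.98 ± 0.22, adjusted p = 1.41e-09), and Zfp36, which promotes decay of AU-rich mRNAs, from 98.5 to 372 CPM (1.92 ± 0.19, adjusted p = 1.14e-07, edgeR). In IL_TNF_24h against TNF_24h, 4 rose and 2 fell, where 29.2% were raised and 27.1% lowered, with Zfp36l1 (1.58 ± 0.30) and Rc3h1 (1.57 ± 0.22) higher and Arid5a (-2.27 ± 0.21) and Zfp36 (-1.61 ± 0.19) lower (edgeR, each called).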

How the data were processed

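The values are deposited counts per gene, which the authors left as whole numbers without scaling. The submitters' processing notes name TopHat2 2.0.12, Subread 1.6.3 with its featureCounts, edgeR 3.28.1 and GRCm38. Not given in the sources used here are the annotation, the strand setting and how read pairs were counted. Values of 2 (30373) outnumbered values of 1 (17808), so counting intervals may be too narrow, and reads of overlapping antisense genes cannot be told apart. Gene tables gave a symbol to 32832 of 47069 identifiers. Exon lengths came from an annotation of an older build, of which no coordinate was used.

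Software was R 4.3.3 with edgeR 4.0.16, DESeq2 1.42.0 and limma 3.58.1. Of 32292 genes with a count, filterByExpr by group kept 15581. After TMM scaling, 1 model with a term for each group was fitted to the 21 libraries, and contrasts were tested by edgeR's quasi-likelihood F test with Benjamini-Hochberg adjustment over all tested genes and a threshold of 0.05. The standard error is the log2 fold change divided by the square root of F.

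Named are all 10 members, the 2 most alike genes of each member reaching 10 CPM, and up to 4 called genes of a list with the largest change and at least 10 CPM in the higher group. Sex-linked, cell type and other ligand genes were named after their values were seen. A result of 1 listed gene that the rule names is not reported here. The members and the lists were chosen with earlier results of these data known. Alternatives were the Wald test or the size factors of DESeq2, no filter, a strict filter (1 CPM in 3 libraries), fitting the compared groups alone, a replicate block, and leaving out each library. Leaving out Ctrl_0h replicate 2, TNF_6h replicate 3 and IL_TNF_24h replicate 1 together was chosen after seeing the data. The method was run on counts simulated from its own fitted model, with changes only in genes with ample counts. That check cannot speak for members near the floor or for differences between sets.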

Additional observations from a re-analysis of the deposited data

Results flagged for a closer look

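Each of the following is a difference between the effect of TNF at 24 h with IL and without IL, on the log2 scale, that passed the test by edgeR over all tested genes. For Il27 it was -3.73, for Il10 -3.00, for Ebi3 -2.34, for Il15 -2.22 and for Osm -1.31. The sign was negative and the call was kept in all 19 alternatives run for each of these 5 genes, with adjusted p of at most 0.0435, the highest being that of Osm. The libraries with and without IL are taken as different sets, and the change without IL also holds the time in culture. Here IL, set and time in culture cannot be told apart. With 3 libraries in a group no single library was tested as standing apart.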

How the results depend on the processing

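Counts of called members moved by over 1.5 times in 3 comparisons. In IL_TNF_6h against IL_6h, 4 members were called by the DESeq2 Wald test and with 3 libraries left out together, against 2. In IL_TNF_24h against IL_24h, 5 were called by the DESeq2 Wald test, 5 with no filter and 1 in a fit of the compared groups alone, against 3. In IL_TNF_6h against TNF_6h, leaving out single libraries gave 1 to 3, against 4. In the other comparisons single libraries gave 2 to 3 in TNF_6h against Ctrl_0h and in IL_6h against Ctrl_0h, 4 to 6 in IL_24h against Ctrl_0h, 3 to 4 in IL_24h against IL_6h and 2 to 4 in IL_TNF_24h against IL_24h. Where the cause is not in the construction of the alternative, it was not tested.

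Values that changed sign were all near 0 and not called. Il27 in IL_6h against Ctrl_0h was -0.0132 with DESeq2 size factors, -0.0127 by the DESeq2 Wald test, -0.0242 with the strict filter, -0.0019 in the groups alone, -0.196 without Ctrl_0h replicate 1 and -0.121 without IL_6h replicate 3, with single libraries left out giving -0.196 to 0.207. Ebi3 in the difference of TNF effects at 6 h was 0.00384 without Ctrl_0h replicate 2, 0.0732 without TNF_6h replicate 1 and 0.0420 without IL_6h replicate 1, in a range of -0.162 to 0.0732. Osm in IL_TNF_6h against TNF_6h was 0.0728 without TNF_6h replicate 3 and 0.00439 without IL_TNF_6h replicate 3, in a range of -0.247 to 0.0728, and 0.0857 with 3 libraries left out. Il15 in IL_24h against IL_6h was -0.0460 without IL_6h replicate 3, in a range of -0.0460 to 0.221. In all, 892 log2 fold changes of members under alternatives kept direction and call, 13 changed sign, 13 gained and 26 lost the call. This tally leaves out Il6 where both groups were at or near the floor, and in the differences of TNF effects.

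The replicate numbers did not pair the libraries: correlations of deviations between libraries of the same number ran from -0.31 to 0.36, 6 of 63 over 0.1, and 7 of 21 libraries correlated best with their own number. The replicate block ended 1 member call, Il15 in IL_TNF_6h against TNF_6h (-0.50, adjusted p = 0.0558, edgeR), leaving 3 calls there.

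With no filter, Lif was called lower in IL_24h (adjusted p = 0.00388) and IL_6h (adjusted p = 0.0499) than in Ctrl_0h, and Il12a was called in the difference at 24 h (adjusted p = 0.0452), all resting on single libraries. Depth limits Il6, Il12a, Il12b, Il23a and Lif, for which a level under 0.0582 to 0.105 CPM in 1 library falls below 3 counts.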

Other observations

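Other ligands of the IL-6 and IL-10 families were near the floor in nearly all groups. Of 11 listed, only Clcf1, a gp130 ligand, passed the filter. It had means of 0.956 ± 1.54 CPM in Ctrl_0h, 0.283 ± 0.0543 in TNF_6h, 0.0626 ± 0.0609 in TNF_24h, 1.14 ± 0.400 in IL_24h and 0.948 ± 0.267 in IL_TNF_24h (SD, n = 3). The Ctrl_0h mean rests on replicate 2, at 2.74 CPM from 81 counts against 0 and 4 counts in its partners. Clcf1 was higher in IL_TNF_24h than in TNF_24h (log2 fold change 3.81 ± 1.22, adjusted p = 0.0120, edgeR), groups of different sets. Il20 and Il24 had 0 counts in all 21 libraries.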
